A study of Mus musculus with 14 samples.

Results

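Astrocyte marker genes were read in bulk RNA-seq of primary microglia from TIMP2 KO and WT mice. The genes are *Gfap*, *Aqp4*, *Slc1a2*, *Slc1a3*, *Gja1*, *Aldoc*, *Aldh1l1*, *Ttyh1*, *Atp1b2* and *S100b*, 10 of the 49315 genes of the count table, and they were found by matching the table's Ensembl identifiers to these symbols in the mouse annotation. All 10 passed the filter on low counts that left 15700 genes for testing. Both genotypes were pups labelled C57BL/6 (C57Bl/6J background in the study's methods) at P6-P7 with the sexes pooled, 7 libraries each, and every library came from its own pool of 5 forebrains. The KO mice carry a global deletion of TIMP2, so the astrocytes of the donor brains carried the deletion as well. Microglia were taken from the dissociated tissue with CD11b microbeads and plated on poly-D-lysine before RNA was collected, and neither genotype received a treatment. P-values of KO against WT set the difference between genotypes against the spread between these pools. Those of correlations come from permuting the libraries within each genotype.

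Astrocytes support neurons by taking up glutamate and potassium, by coupling to each other through gap junctions and by moving water at the end feet that cover blood vessels. Some of the 10 genes serve these tasks, and all 10 are used here as astrocyte markers, which need not be confined to astrocytes. They are read in cultures selected for microglia, beside the markers of the other cell types. A bulk count cannot tell fewer astrocytes in a culture from less of a transcript in each of them. It also cannot tell which cell made the transcript.

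Promoter windows from RefSeq were read for 8 of the 10 genes (not *Aqp4* and *Atp1b2*), and the counts of matches below cover these 8 only. They had 9 windows of 300 bases on GRCm38.p6, each running from 250 bases before a RefSeq transcription start to 50 after it. Some windows, as those of *Gfap*, *Slc1a2* and *Aldh1l1*, lie inside the annotated span of the gene, and other starts were not read. The windows of *Gfap* and *Slc1a3* are shown as examples from the genes whose levels rose and fell together across the libraries. The window of *S100b* is shown because its levels followed them least closely. They lie at chr11:102897151-102897450 on the minus strand, chr15:8710758-8711057 on the minus strand and chr10:76253586-76253885 on the plus strand, and each is written from 5′ to 3′ along its gene. Capitals mark matches to a STAT site (TTCNNNGAA) in *Gfap* and *Slc1a3*, a TATA box (TATAAA, here on the opposite strand) in *Slc1a3* and an NFI half-site (TTGGCA) in *S100b*.
Gfap: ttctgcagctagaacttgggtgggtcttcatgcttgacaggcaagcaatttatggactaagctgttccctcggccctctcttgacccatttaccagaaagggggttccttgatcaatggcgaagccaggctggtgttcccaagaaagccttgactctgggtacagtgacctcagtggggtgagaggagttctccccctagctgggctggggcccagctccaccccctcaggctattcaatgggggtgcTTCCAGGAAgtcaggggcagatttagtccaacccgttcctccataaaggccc
Slc1a3: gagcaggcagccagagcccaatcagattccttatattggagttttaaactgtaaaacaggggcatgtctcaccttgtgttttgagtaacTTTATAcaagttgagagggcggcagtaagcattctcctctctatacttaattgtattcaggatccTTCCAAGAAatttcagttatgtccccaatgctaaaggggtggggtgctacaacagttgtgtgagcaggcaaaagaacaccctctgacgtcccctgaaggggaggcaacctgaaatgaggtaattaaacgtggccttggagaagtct
S100b: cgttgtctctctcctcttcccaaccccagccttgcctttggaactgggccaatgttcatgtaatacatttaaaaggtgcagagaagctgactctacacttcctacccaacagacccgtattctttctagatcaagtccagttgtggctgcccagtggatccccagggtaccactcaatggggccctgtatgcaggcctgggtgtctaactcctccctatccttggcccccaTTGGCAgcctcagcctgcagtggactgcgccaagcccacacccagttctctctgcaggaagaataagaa

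Both strands of every window were searched for these letters and for a SOX core (ACAATG), and no 2 matches overlapped. A STAT site was found in 3 of the 9 windows (*Gfap*, *Slc1a3* and 1 of the 2 *Aldoc* windows) and in 8.30% of all 32851 windows of the table. An NFI half-site was found in 2 of the 9 (*S100b* and the other *Aldoc* window) and in 14.1% of all windows, and a TATA box in 1 of 9 and 13.6%. The SOX core was found in 0 of 9 windows and in 12.6% of all. The windows of *Slc1a2*, *Aldh1l1*, *Ttyh1* and *Gja1* held no match to any of these motifs. Of these, *Slc1a2*, *Ttyh1* and *Gja1* varied closely with *Gfap* and *Slc1a3* across the libraries. *Aldoc*, which had a STAT site, followed them less closely. Whether any match bears on the levels was not tested. GC content was between 45.3% (*Slc1a3*) and 63.3% (*Ttyh1*), with a median of 52.7% over all windows.

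Before the marker genes were compared between genotypes, the deleted gene was read in every library. *Timp2* was at 119.6, 121.3 and 129.2 counts for every 1000000 counted reads (CPM; lowest, median and highest) in KO and at 397.6, 476.4 and 495.1 CPM in WT, and the genotypes did not overlap. The log2 fold change of KO over WT was −1.92 ± 0.0464 (SE; edgeR quasi-likelihood test, adjusted p = 1.53e-12), so reads on *Timp2* were fewer in each library labelled KO than in any labelled WT, but they were not absent. Each library held from 38875344 to 48070236 counted reads. Genes of the microglia marker list were counted in every library. *Csf1r* (the CSF1 receptor) was between 2242 and 3323 CPM and *Ctss* (a lysosomal protease) between 2291 and 2996 CPM. Others were lower, with *P2ry12* (a purinergic receptor) between 26.1 and 54.1 CPM, *Tmem119* between 1.84 and 6.28 CPM and *Siglech* between 1.99 and 5.86 CPM, the last 2 within the range of the astrocyte genes. The summed level of 18 microglia markers was between 15768 and 19266 CPM.

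Transcripts of all 10 astrocyte genes were counted in all 14 libraries, at a summed level below that of the microglia markers and with wide differences between cultures. Their summed level was 34.6, 56.2 and 151.5 CPM (lowest, median and highest) in KO and 39.4, 105.1 and 292.5 CPM in WT. This corresponded to between 0.00341% and 0.0294% of the counted reads. KO 5 had the lowest sum, WT 5 the next lowest and WT 4 the highest, so both genotypes had cultures at the low end.

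**Figure D1:**
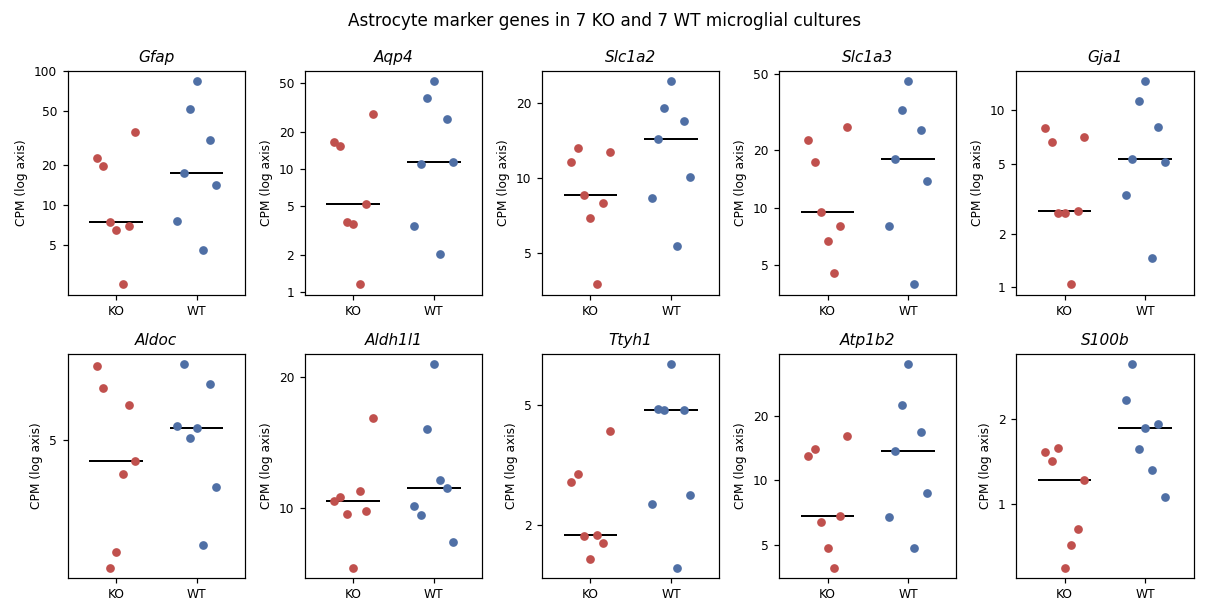
CPM of each astrocyte marker gene (log axis, a separate scale for each gene) in 7 KO and 7 WT libraries, 1 point per library, with the median as a line. The genotypes overlap for all 10 genes, and the spread within a genotype is widest for *Aqp4* and *Gfap* and narrowest for *Aldh1l1*.

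*Gfap* encodes the intermediate filament protein of astrocytes and lies at chr11:102887336-102900912 on the minus strand (GRCm38, as are all gene positions here). It was at 2.54, 7.46 and 35.3 CPM in KO and at 4.59, 17.3 and 84.5 CPM in WT. The highest library, WT 4, was 33.2-fold above the lowest, KO 5. Its mean in the 7 KO libraries, 14.3 ± 11.8 CPM (SD), and in the 7 WT libraries, 30.1 ± 29.0 CPM (SD), was each about as large as the SD.

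*Aqp4*, the water channel of astrocyte end feet, lies at chr18:15389496-15410982 on the minus strand. Its level was 1.16, 5.22 and 28.0 CPM in KO and 2.06, 11.5 and 52.2 CPM in WT. The same 2 libraries marked its limits, WT 4 at 45.0-fold the level of KO 5, the widest range of the 10 genes. In reads, this was from 47 to 2181 counts.

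The glutamate transporter genes *Slc1a2* (GLT-1) and *Slc1a3* (GLAST) lie at chr2:102658659-102790784 on the plus strand and at chr15:8634124-8710764 on the minus strand. *Slc1a2* was at 3.73, 8.55 and 13.2 CPM in KO and at 5.34, 14.4 and 24.6 CPM in WT, a 6.61-fold range over the 14 libraries. *Slc1a3* was at 4.54, 9.45 and 26.4 CPM in KO and at 3.98, 17.9 and 46.1 CPM in WT, an 11.6-fold range. All 7 KO values of *Slc1a2* were below the WT median, and those of *Slc1a3* were below it in 5 of 7. Both were highest in WT 4.

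*Gja1* encodes the gap junction protein connexin 43 and lies at chr10:56377330-56402513 on the plus strand. It was at 1.04, 2.70 and 7.96 CPM in KO and at 1.47, 5.30 and 14.7 CPM in WT, a 14.2-fold range from KO 5 to WT 4. *Atp1b2*, which encodes the beta2 subunit of the sodium pump and a glial adhesion molecule, lies at chr11:69599736-69605942 on the minus strand. Its level was 3.90, 6.83 and 16.1 CPM in KO and 4.81, 13.7 and 34.9 CPM in WT, and its limits were the same 2 libraries. *Ttyh1*, a membrane protein gene of the tweety family, lies at chr7:4119408-4136708 on the plus strand and was at 1.54, 1.85 and 4.12 CPM in KO and at 1.45, 4.80 and 6.83 CPM in WT. In WT, 4 of the 7 libraries were above the highest KO library and WT 5 was below the lowest.

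*Aldh1l1* and *Aldoc* had the narrowest ranges of the 10 genes, and *S100b* the lowest levels in CPM. *Aldh1l1*, which encodes a folate enzyme of astrocytes, lies at chr6:90486427-90600203 on the plus strand and was at 7.31, 10.4 and 16.1 CPM in KO and at 8.38, 11.1 and 21.4 CPM in WT. WT 4 was again highest, but at 2.93-fold the level of the lowest library, KO 4. In KO 5, where *Gfap* and *Aqp4* were lowest, *Aldh1l1* was at 11.0 CPM, above the KO median. *Aldoc* (aldolase C, a glycolytic enzyme, chr11:78322968-78327781, plus strand) was at 2.39, 4.44 and 7.71 CPM in KO and at 2.72, 5.39 and 7.79 CPM in WT. *S100b*, which encodes a calcium-binding protein, lies at chr10:76253853-76261159 on the plus strand and was the least counted, with 25 to 141 reads per library. It was at 0.594, 1.21 and 1.58 CPM in KO and at 1.06, 1.87 and 3.14 CPM in WT, with WT 2 highest and all 7 KO values below the WT median.

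Levels of different genes were compared per kilobase of exon. On this scale the order of the mean log2 levels over the 14 libraries was *Gfap*, *Atp1b2*, *Aldh1l1*, *Slc1a3*, *Aqp4*, *Aldoc*, *S100b*, *Slc1a2*, *Ttyh1* and *Gja1*. The geometric mean level of *Gfap* was 2.46 CPM per kb in KO and 4.66 in WT, and that of *Gja1* 0.347 in KO and 0.548 in WT. Of the 9 steps between neighbours in this order, 2 were larger than the SD of the difference over the libraries. *Aldoc* was above *S100b* by 0.66 ± 0.62 (SD, log2 CPM per kb, n = 14), in 12 of 14 libraries, and *Slc1a2* above *Ttyh1* by 0.84 ± 0.32, in 13 of 14. The other neighbours did not differ beyond their spread. *Aqp4* and *Aldoc* had the same mean log2 level per kb to 2 decimals and the SD of their difference was 1.46, since *Aqp4* was above *Aldoc* in 7 libraries and below it in 7.

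Gene counting that ignores strand could add reads of overlapping genes, and the strand setting is not given in the sources used here. Exons of *Slc1a2* (with *Gm13872*), *Aldh1l1* (with *Gm15756*) and *Ttyh1* (with *9430041J12Rik* and *D030047H15Rik*) share bases with genes on the opposite strand, whose mean counts were at most 3.43 per library. *Aldh1l1* also shares 105 exonic bases with *Gm45901* on its own strand, which had 0 counts. *S100b* overlaps the span of *Dip2a* on the opposite strand, which had a mean of 2154 counts per library, with 0 shared exonic bases. *Gfap*, *Aldoc* and *Atp1b2* are on the chromosome of *Timp2*, at distances of 15.4, 40.0 and 48.7 Mb.

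The comparison of KO with WT asked whether the loss of TIMP2 went with a different level of these genes in the cultures. None of the 10 genes passed the threshold (edgeR quasi-likelihood test, adjusted p under 0.05 over the 15700 tested genes), 0 of 10 being called in either direction. Over all tested genes, 3 were called lower (0.0191%) and 0 higher (0%). Before adjustment, p was under 0.05 for 255 lower genes (1.62%) and 274 higher ones (398 and 189 with upper-quartile scaling), and DESeq2 called 6 lower and 5 higher. No astrocyte marker was among the calls of DESeq2. The groups overlapped for all 10 genes, and 13 of the tested genes had groups that did not overlap (0.0828%).

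All 10 estimates lay below 0, their median being −0.70 on the log2 scale, beside 49.2% of all tested genes with an estimate below 0 and a median of 0.00164. The estimates are not separate observations, because most of these genes varied together over the same libraries, as described next. The 2 genes of the astrocyte list with an unadjusted p under 0.05 were *S100b* and *Ttyh1*. For *S100b* the log2 fold change was −0.74 ± 0.269 (SE; edgeR p = 0.0144, adjusted p = 0.943), and the two-sided exact permutation test of log2 CPM over all 3432 splits gave p = 0.0262. For *Ttyh1* it was −0.71 ± 0.319 (edgeR p = 0.0413, adjusted p = 0.943; exact permutation p = 0.106). 

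The largest estimates had the largest errors. The log2 fold change of *Gfap* was −1.07 ± 0.645 (SE, edgeR adjusted p = 0.943; exact permutation p = 0.241) and that of *Aqp4* −0.96 ± 0.719 (edgeR adjusted p = 0.943; exact permutation p = 0.326). For *Slc1a2*, *Slc1a3*, *Gja1* and *Atp1b2* it was between −0.73 and −0.61, with SEs from 0.324 to 0.495. *Aldh1l1* had −0.22 ± 0.202 and *Aldoc* −0.12 ± 0.279 (SE, edgeR adjusted p = 0.970). One library bore on most of these values. Without WT 4 the estimate of *Gfap* was −0.56, that of *Aqp4* −0.54, that of *Slc1a3* −0.33 and that of *Aldh1l1* −0.04, and the median over the 10 genes was −0.41. Without KO 7, *Gfap* was at −1.47 and the median at −0.86. The threshold was passed by 0 of the 10 in each of these fits.

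**Figure D2:**
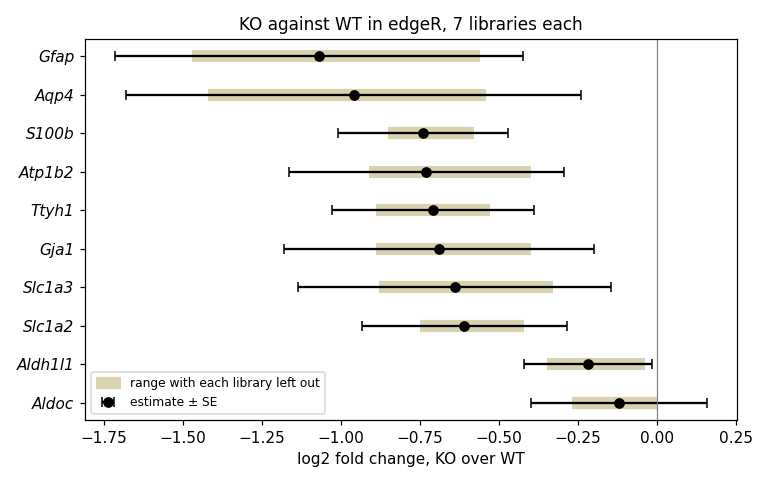
Log2 fold change of KO over WT for each astrocyte marker gene (edgeR, 7 libraries each), with the SE as bars and the range of the estimate when each of the 14 libraries is left out as a band. All 10 estimates are below 0, and the SE bars of *Aldoc* cross 0.

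Variation between cultures was then compared between the genes, with each gene's log2 CPM centred on the mean of its genotype so that a KO difference could not create it. Of the 45 pairs of genes, 25 were correlated with a Benjamini-Hochberg adjusted permutation p of r under 0.05 (100000 permutations within genotype), and 21 by rank. The median Pearson r was 0.649 (median Spearman rho 0.574), from 0.179 to 0.988, while the median over all 123237150 pairs of tested genes was near 0 and their 95th percentile was 0.602. All pairs share the same 14 libraries and their scaling. Leaving out the 2 libraries farthest from the median of the first gene of a pair, the median r was 0.781.

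A group of 7 genes varied closely together. *Gfap*, *Aqp4*, *Slc1a2*, *Slc1a3*, *Gja1*, *Ttyh1* and *Atp1b2* each had a median r of at least 0.8 with the other astrocyte markers, a threshold chosen after the values were seen. Their 21 pairs had r between 0.860 and 0.988 and a median of 0.966, and 0.879% of all pairs of tested genes had r above 0.8. The lowest rho among them was 0.798, and the lowest r was 0.722 within KO, 0.915 within WT and 0.879 without the 2 farthest libraries. The closest pair was *Gfap* and *Aqp4* (r = 0.988), the filament protein and the end-foot water channel. The genes moved together but by unequal amounts, with SDs of log2 CPM in WT of 1.73 for *Aqp4*, 1.49 for *Gfap*, 1.22 for *Slc1a3* and 0.77 for *Slc1a2*.

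**Figure D3:**
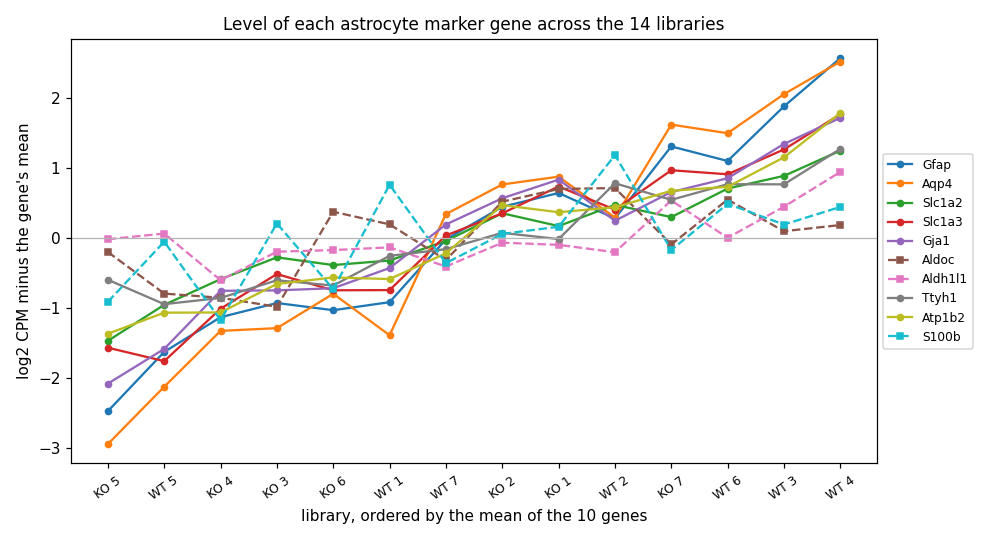
Log2 CPM of each astrocyte marker gene minus its own mean over the 14 libraries, with libraries ordered from the lowest (KO 5) to the highest (WT 4) mean of the 10 genes. Solid lines with circles are the 7 genes that vary together and dashed lines with squares are *Aldoc*, *Aldh1l1* and *S100b*, which follow the order less closely.

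*Aldoc*, *Aldh1l1* and *S100b* followed this group less closely. Their median r with the other astrocyte markers was 0.526 for *Aldoc*, 0.565 for *Aldh1l1* and 0.443 for *S100b*. The relation of *Aldoc* with *Aldh1l1* did not pass the threshold (r = 0.179, rho = 0.134, adjusted permutation p = 0.540 and 0.670), nor did that of *Aldh1l1* with *S100b* (r = 0.196, rho = 0.077, adjusted permutation p = 0.526 and 0.802). *Aldh1l1* had r between 0.499 and 0.681 with the 7 genes of the group, and *S100b* between 0.339 and 0.498. Within KO the r of *S100b* with these genes was between 0.606 and 0.737, and within WT between 0.059 and 0.448, a difference that was not tested. Of the 100 relations between a marker and a list of other genes, *S100b* had its highest r with 14 neuron markers (r = 0.790, rho = 0.719, adjusted permutation p = 0.00671 and 0.0188, and r = 0.700 without the 2 farthest libraries). *Aldoc* did so too (r = 0.781, rho = 0.881, adjusted permutation p = 0.00789 and 0.000923, and r = 0.907 without them). Some neurons also express *Aldoc*, and the source of these reads was not tested.

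**Figure D4:**
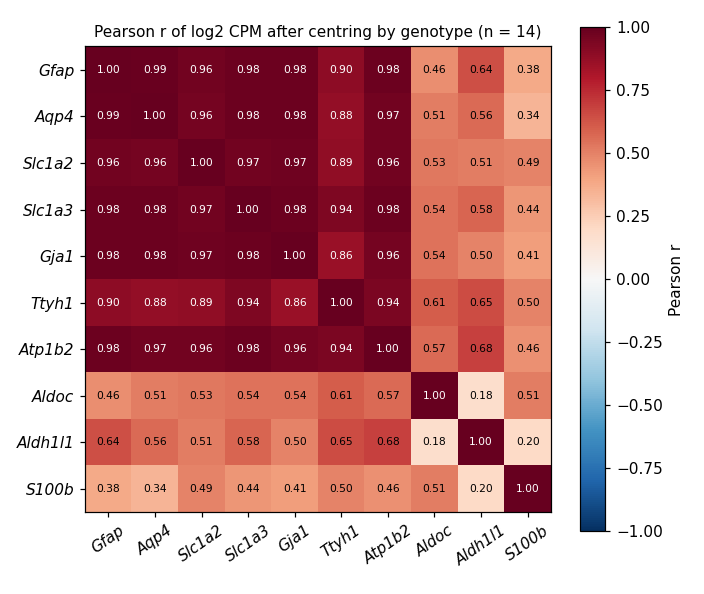
Pearson r of genotype-centred log2 CPM between astrocyte marker genes over 14 libraries, with the 7 genes that vary together first. Their block has r of at least 0.860, and the rows of *Aldoc*, *Aldh1l1* and *S100b* are paler.

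Further astrocyte genes gave nearly the same order of cultures. Of 36 such genes 30 passed the filter, and their mean log2 CPM followed that of the 10 markers with r = 0.995 (rho = 0.982, adjusted permutation p = 5e-05 for both over 10 lists, and r = 0.992 without the 2 farthest libraries). In KO 0 of the 30 were called lower and 0 higher, 28 estimates were below 0 and the median log2 fold change was −0.57. Before adjustment 2 of them (*Grin2c* and *Itih3*) had p under 0.05, both lower. DESeq2 called 0 genes in this list and in each of the lists below. Of the 30, 20 had r above 0.8 with the 10 markers, beside 6.31% of the 12641 tested genes with a mean of at least 1 CPM. Among the 4 most abundant, *Sparcl1* (a secreted matricellular protein) ranged from 5.16 to 50.7 CPM with r = 0.987 and *Fabp7* (a fatty acid binding protein of glial precursors) from 3.51 to 48.5 CPM with r = 0.980. *Glul* (glutamine synthetase), at 491 to 675 CPM, had r = 0.249, and *Mfge8* (a bridging protein of phagocytosis), at 39.1 to 117 CPM, had r = 0.551. These 2 had the highest mean levels of the list.

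Transcription factors of the astrocyte lineage also varied with the markers. The mean of 9 of 10 that passed the filter had r = 0.956 with the markers (rho = 0.956, adjusted permutation p = 5e-05 for both, and 0.944 without the 2 farthest libraries), with 8 estimates below 0, 0 called and a median estimate of −0.45 (log2). The most abundant were *Nfix* (23.7 to 51.3 CPM, r = 0.872), *Nfia* (29.7 to 39.3 CPM, r = 0.472), *Nfib* (8.47 to 30.0 CPM, r = 0.753) and *Zbtb20* (14.0 to 24.5 CPM, r = 0.935). *Sox9*, a regulator of glial fate, ranged from 1.03 to 8.93 CPM with r = 0.925.

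Markers of some other cell types followed the astrocyte genes and others did not. Radial glia and neural progenitor markers had r = 0.915 (rho = 0.921, adjusted permutation p = 5e-05 and 0.0001), with 7 of 8 estimates below 0 and a median of −0.20 (log2). Their most abundant genes were *Vim* (360 to 770 CPM, r = 0.578), *Nes* (63.7 to 164 CPM, r = 0.763), *Hes1* (1.26 to 15.4 CPM, r = 0.648) and *Sox2* (0.247 to 11.1 CPM, r = 0.885). The first of these is also made by many cultured cells. Oligodendrocyte lineage markers had r = 0.930 (rho = 0.899, adjusted permutation p = 5e-05 and 0.000225), with 9 of 12 estimates below 0 and a median of −0.36. Within this list the members differed. *Olig1* (0.938 to 20.3 CPM, r = 0.957) and *Cspg4* (5.38 to 29.4 CPM, r = 0.923), which mark precursors, followed the astrocyte genes, and the myelin genes *Mbp* (55.4 to 69.1 CPM, r = 0.581) and *Cnp* (62.2 to 83.5 CPM, r = −0.684) did so less or in the opposite direction. None of the genes of either list was called, with 0 also at an unadjusted p under 0.05.

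Fibroblast and mural cell markers had r = 0.808 (rho = 0.776, adjusted permutation p = 0.00318 and 0.0061, and 0.724 without the 2 farthest libraries), with all 8 tested estimates below 0 and a median of −0.35. *Acta2* (smooth muscle actin) ranged from 0.769 to 16.5 CPM with r = 0.971, and *Tagln* from 0.637 to 3.95 CPM with r = 0.958, while the collagen genes *Col1a1* (0.722 to 9.22 CPM) and *Col1a2* (1.03 to 11.2 CPM) had r = 0.821 and 0.590. Neuron markers were related more weakly (r = 0.601, rho = 0.587, adjusted permutation p = 0.0447 and 0.0495, and 0.533 without the 2 farthest), with 12 of 14 estimates below 0 and a median of −0.37. *Map2* (4.20 to 18.0 CPM) had r = 0.929, *Tubb3* (2.55 to 8.81 CPM) 0.812, *Dcx* (3.14 to 8.96 CPM) 0.731 and *Snap25* (2.56 to 13.6 CPM) 0.202. Ependymal and choroid plexus markers had r = 0.580 (rho = 0.600, adjusted permutation p = 0.0448 and 0.0495, and 0.558 without the 2 farthest) over 4 of 7 genes, all with estimates below 0, and *Ttr* ranged from 1.05 to 91.6 CPM. No gene of these lists was called, with 0 also at an unadjusted p under 0.05.

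Microglia markers did not follow the astrocyte genes (r = 0.133, rho = 0.257, adjusted permutation p = 0.750 and 0.444). Their estimates were above 0 for 15 of 18, with a median of 0.04 (log2) and 0 called, 0 also at an unadjusted p under 0.05. *Csf1r*, *Ctss* and *C1qc* differed between their lowest and highest library by less than the astrocyte genes, and *C1qc* (a complement subunit) was between 1766 and 2148 CPM. Single genes of the list ran both ways, with r below 0 for 11 of 18. Of those named here, *Csf1r* had r = −0.605, *P2ry12* −0.393, *C1qc* −0.309, *Ctss* −0.258, *Siglech* −0.014 and *Tmem119* 0.597. *Olfml3*, at 42.8 to 142 CPM, had the highest r of the list with the astrocyte markers (0.832) and was named after its value was seen. Border macrophage markers ran in the opposite direction (r = −0.614, rho = −0.591, adjusted permutation p = 0.0447 and 0.0495, and −0.576 without the 2 farthest). That relation was −0.241 within KO and −0.807 within WT. *Mrc1* (the mannose receptor, 308 to 675 CPM) had r = −0.838, *Pf4* (14.3 to 30.1 CPM) −0.666, *Ms4a7* (86.5 to 218 CPM) −0.519 and *F13a1* (3.27 to 36.4 CPM) 0.017. Endothelial markers had r = −0.018 (rho = −0.191, adjusted permutation p = 0.955 and 0.520). Their most abundant genes were *Flt1* (14.6 to 46.2 CPM), *Kdr* (11.6 to 19.7 CPM), *Pecam1* and *Cdh5*, with 4 of 6 estimates above 0. *Cldn5* (0.227 to 0.715 CPM) and *Slco1a4* (0.09495 to 0.623 CPM) were lower, and *Tek* and *Ly6c1* did not pass the filter. No gene of these 2 lists was called either, with 0 at an unadjusted p under 0.05.

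**Figure D5:**
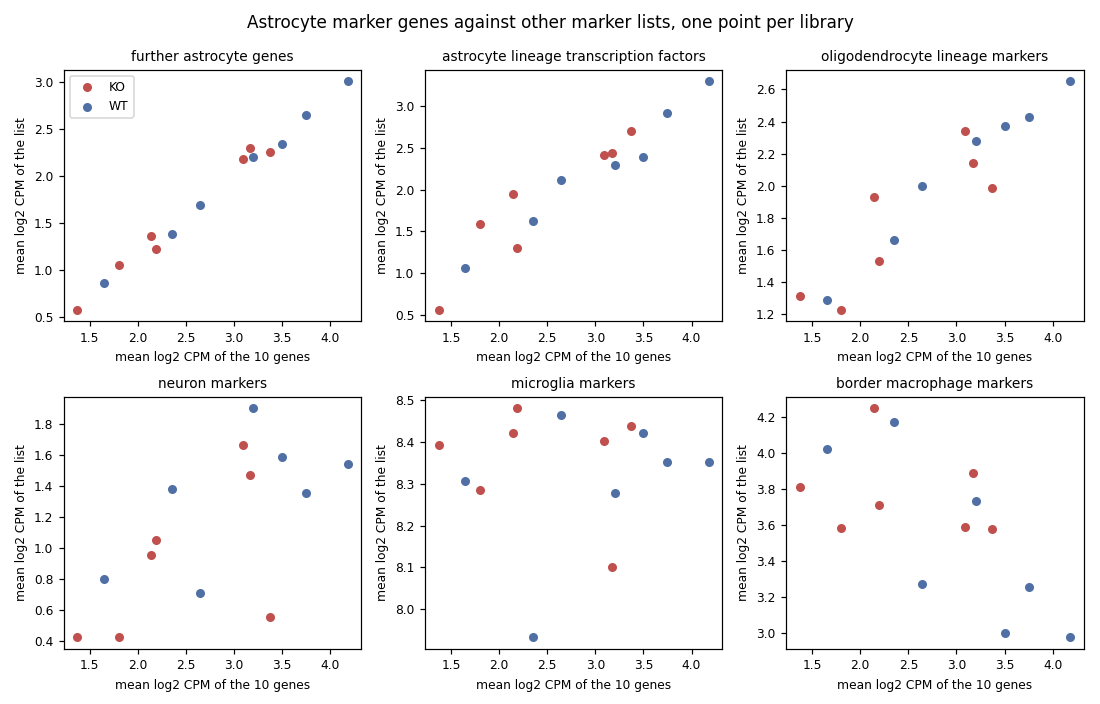
Mean log2 CPM of 6 marker lists against the mean log2 CPM of the 10 astrocyte marker genes, 1 point per library, coloured by genotype. The further astrocyte genes lie along a line (r = 0.995), microglia markers show no clear slope (r = 0.133) and border macrophage markers fall (r = −0.614). The r values were computed after centring by genotype, while the points are not centred.

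Some properties of the libraries moved with the astrocyte markers. Their mean log2 CPM had r = −0.320 with the total counts (rho = −0.389, adjusted permutation p = 0.285 and 0.241) and r = 0.448 with the number of genes counted (rho = 0.349, adjusted permutation p = 0.173 and 0.241). With the mitochondrial share of the counts, between 1.02% and 1.17%, r was 0.638 (rho = 0.719, adjusted permutation p = 0.0391 and 0.0150, and 0.544 without the 2 farthest libraries). With the TMM scaling factor it was 0.823 (rho = 0.833, adjusted permutation p = 0.00172 and 0.00292, and 0.875 without the 2 farthest). Whether these properties play a part in the levels was not tested. With the scaling factors of DESeq2's type the number of correlated pairs was also 25, but these factors come from the same counts, so this cannot decide the question. The study's methods name a batch that is not given in the sources used here, so values within a batch could not be computed.

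The genes most like the astrocyte markers were then named among the 12517 tested genes with a mean of at least 1 CPM that were in none of the lists. Among the 10 genes with the highest r with the mean of the 10 markers were *Paqr8* (0.992, 1.23 to 8.33 CPM), *Thy1* (0.991, 0.543 to 6.37 CPM) and *Tmod2* (0.991, 2.35 to 17.0 CPM). Others were *Pcdh1*, *Nhsl1*, *Lrig1* (a receptor inhibitor, 1.26 to 20.2 CPM), *Cxcl12* (a chemokine, 0.346 to 3.50 CPM) and *Adgrl3*, with r from 0.988 to 0.990. *Thy1*, a surface glycoprotein, is also a neuronal gene. Each of these 8 kept an r of at least 0.984 without the 2 farthest libraries, and their log2 fold changes of KO over WT lay between −0.79 and −0.40 with an edgeR adjusted p of 0.943. At the other end were *Mpp1* (r = −0.956), *Mettl13* (−0.952) and *Trim26* (−0.939), whose levels differed little between libraries, *Mpp1* being between 250 and 299 CPM. In all, 798 of the 12641 tested genes with a mean of at least 1 CPM had r above 0.8 with the markers and 340 had r below −0.8.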

How the data were processed

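Poly(A) RNA of 14 microglial cultures was sequenced as paired-end reads. Per the labels, the authors trimmed reads with Trimmomatic 0.36, aligned them to GRCm38 with STAR 2.5.2b and counted them per gene with featureCounts of Subread 1.5.2. The deposited values are raw counts with 1 column per library, not normalized. Strand setting and annotation release are not given in the sources used here. Genotype and replicate came from sample titles. Symbols, positions and exon lengths came from GENCODE release M21, which matched 48970 of 49315 genes.

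Genes were filtered with filterByExpr (minimum count 10, total 15), scaled by TMM and fitted in edgeR 4.0.16 (R 4.3.3) with its quasi-likelihood test of KO over WT, with Benjamini-Hochberg adjustment over all 15700 tested genes. DESeq2 1.42.0, other scaling factors, no filter, a replicate block and leaving out each library were alternatives. CPM used TMM library sizes and log2 CPM a prior count of 1. Single genes were compared by exact permutation, and correlations by 100000 permutations within genotype (scipy 1.17.1). The methods were tested on simulated data. Depth was 38875344 to 48070236 counts per library. Relative to the count, counting error was smallest for the most counted genes.

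The marker genes and the other lists were chosen with earlier results of these data known. The text names the 10 markers, *Timp2*, genes overlapping a marker, the 4 most abundant genes of each list, and the 10 genes most like and 3 least like the markers. Some genes that this rule picks are not reported here. *Olfml3*, *Sox9*, *Grin2c*, *Itih3*, *P2ry12*, *Tmem119*, *Siglech*, *Cldn5*, *Slco1a4*, *Tek* and *Ly6c1* were added after their values were seen. A comparison of the proteins of *Slc1a2* and *Slc1a3* was not run, as no protein table was used here.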

Additional observations from a re-analysis of the deposited data

Results flagged for a closer look

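None of the 10 astrocyte marker genes had a library that stood apart from the other 6 of its genotype by Dixon's test on log2 CPM. Over the markers and the 10 other lists, 40 groups of 7 libraries were looked at and 2 were marked, where chance marks about 1 in 20. The mean log2 CPM of the endothelial markers was 0.96 in KO 4 and between 1.38 and 1.62 in the other KO libraries. The mean log2 CPM of the microglia markers was 7.93 in WT 1 and between 8.28 and 8.46 in the other WT libraries, and WT 1 was ninth of 14 in the mean of the astrocyte markers.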

How the results depend on the processing

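The log2 fold changes of the 10 markers kept their direction and stayed above the threshold of the adjusted p in all 20 alternatives, with 0 of 10 called in each. With each library left out, *Gfap* was between −1.47 and −0.56 and *Aldoc* between −0.27 and 0.00, and 3 or 4 genes were called over all tested genes, *Timp2* between −1.95 and −1.90. DESeq2 called 11 genes and DESeq2 with the replicate block 27, against 3 in edgeR, and no marker was among them. With the replicate block in edgeR 3 genes were called. The numbers were not taken to pair the samples, since they are not stated to do so. Same-numbered KO and WT libraries deviated together by more than 0.1 in 3 of 7 pairs (correlations from −0.196 to 0.743). Their mean correlation was 0.103, beside −0.0156 for other combinations of KO and WT, and 3 of 14 libraries correlated best with their own number. Between 21 and 30 pairs of markers were correlated under all 17 alternatives, with 21 to 29 when a library was left out. From summed CPM, the relation with microglia markers was −0.200 (adjusted permutation p = 0.501) in place of 0.133, and that with ependymal markers 0.431 (0.154) in place of 0.580. The relation with radial glia and neural progenitor markers was 0.613 (adjusted permutation p = 0.0308) in place of 0.915. Those with neuron and border macrophage markers were 0.750 and −0.832 in place of 0.601 and −0.614. The causes were not tested. Depth limits *S100b* most, with 25 counts in its lowest library.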
